A study of Mus musculus with 8 samples.

Results

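Hyaluronan is a long, unbranched sugar polymer that fills the space between dermal cells and holds water there. It is made at the plasma membrane by the hyaluronan synthases Has1, Has2 and Has3, is cut by the hyaluronidases Hyal1 and Hyal2, and is held by proteins that bind it, among them the cell surface receptor Cd44. The matrix binders described here are versican (Vcan), a large proteoglycan, Tnfaip6 (also known as TSG-6), which carries heavy chains of a serum inhibitor onto the polymer, and the link protein Hapln1, which locks proteoglycans to it. These 9 genes were measured by 18 probe sets, each annotated to 1 gene alone, out of 17097 genes and 45141 probe sets in all. They were listed by symbol for their roles, with earlier results of these arrays known.

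The samples were dermal fibroblasts of 8 mice, 1 array per animal, in 2 groups of 4. GW9662, which blocks the nuclear receptor PPARG irreversibly, was given to 4 mice as 150 nmol in 300 µl of acetone on the back skin, 3 times a week over 6 months from an age of 12 months, and the other 4 received acetone alone on the same schedule. From dissected back skin without its subdermis, cells positive for Pdgfra and CD34 and negative for CD45, CD117, CD24, CD31 and EpCam were sorted. RNA of 5000 cells per sample was amplified over 21 cycles. Strain and sex are not stated. The comparison asks how long-term inhibition of PPARG changes the transcripts of old dermal fibroblasts. Collection paired the groups by day, 1 mouse of each. That equal sample numbers mark the same day was inferred, and same-numbered samples were also compared as pairs. These are the same-day pairs named below.

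Values are log2 signals normalised by the authors with RMA, on which a difference of 1 is a doubling of signal. No detection call accompanies them, so it is not known which probe sets lay above background, and different probe sets are not compared as amounts of transcript. The sample medians ran from 4.63 to 4.69, and the sample vehicle 4 stood apart on the first principal component (22.2, with the other samples between -10.4 and 5.49). Pparg, which encodes the receptor that GW9662 blocks, had a log2 fold change of -0.02 ± 0.14 (SE, n = 4 per group). Of the markers of the sort, Cd34 averaged 10.7 in both groups and Ptprc, which encodes CD45, 2.89, while the probe set of Pdgfra was dimmer than the median gene, with a mean of 4.91. Of the 7 leukocyte and macrophage markers measured, 6 were dimmer than the median gene, and their summed log2 signal ran from 30.9 to 31.3 after GW9662 and from 31.0 to 31.7 in vehicle. In bulk samples such as these, fewer cells of a type and less RNA per cell cannot be told apart.

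None of the 9 genes passed the test between GW9662-treated and vehicle-treated fibroblasts. In limma's test over all genes, 0 of the 9 had an adjusted p under 0.05, as 0 of all 17097 genes did (0%), and their adjusted p was 0.997 in each case. At an unadjusted p under 0.05 there was 1 of the 9, Cd44, which was higher after GW9662, against 3.38% of all genes in either direction and 1.57% that were higher. With the replicate number as a block there was again 1 of the 9, Cd44 (adjusted p = 0.966), against 4.83% in either direction and 2.41% higher. After GW9662, 3 of the 9 had a higher mean and 6 a lower one (median log2 fold change -0.03). Among all genes, 47.0% had a higher mean and 51.8% a lower one (median -0.0050). The groups overlapped in all 9 genes, where 1.75% of all genes showed no overlap. The genes differed from one another in their spread between animals, which was wide for Has1 and Tnfaip6 and narrow for Has3 and Hapln1.

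**Figure D1:**
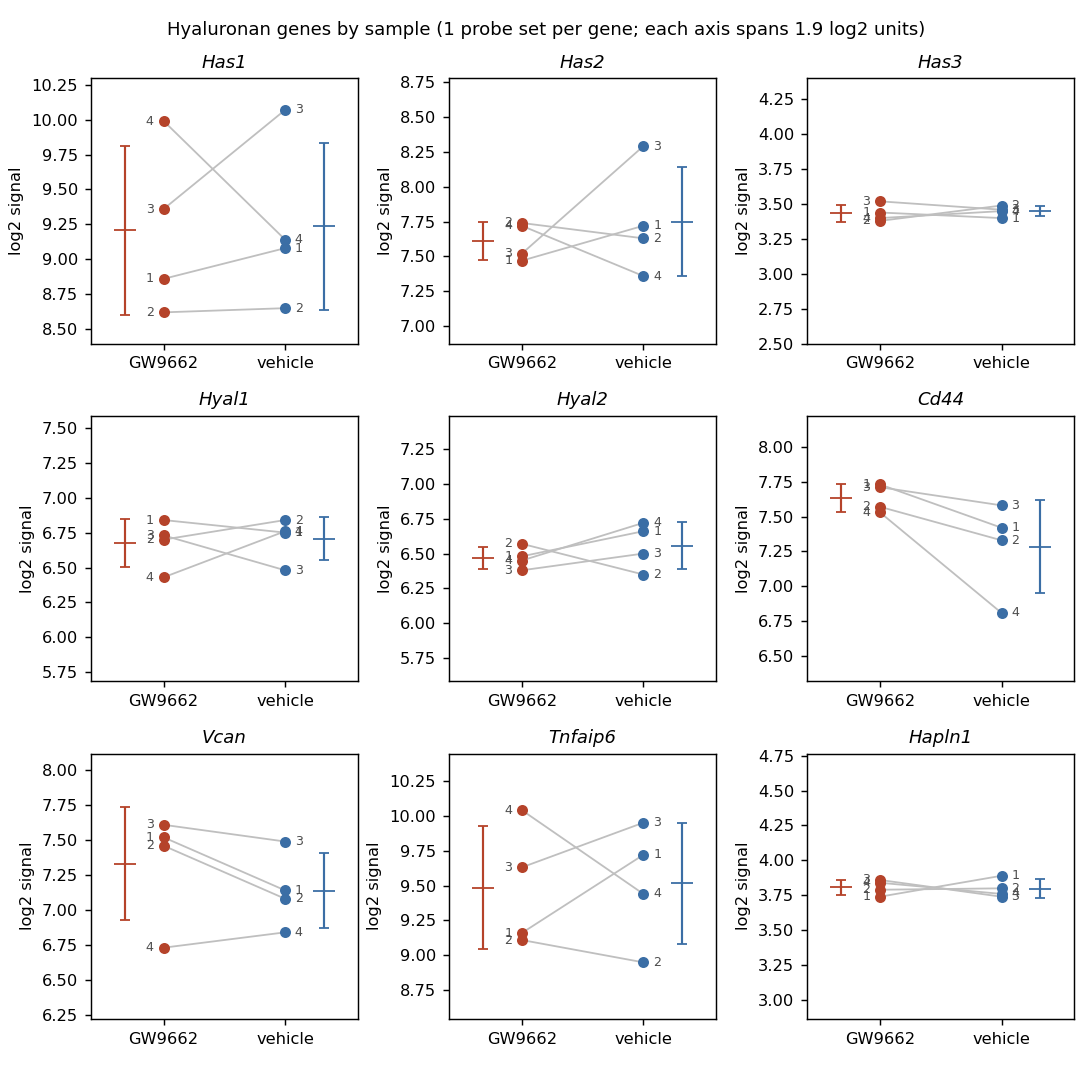
Log2 signal of the 9 genes in each sample, with GW9662 on the left and vehicle on the right of each panel. Grey lines join same-numbered samples, read as taken on the same day, and a bar beside each group shows its mean and SD (n = 4). Has1 spans 8.62 to 10.07 with both groups covering nearly the same range, Cd44 is higher after GW9662 on all 4 lines, and Has3 and Hapln1 hardly vary.

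Has1 is a synthase whose transcript is known to be induced in fibroblasts by inflammatory signals. Its log2 signal was 8.86, 8.62, 9.36 and 9.99 in GW9662 samples 1 to 4, against 9.08, 8.65, 10.07 and 9.14 in vehicle samples 1 to 4. One sample of each group stood high, GW9662 4 and vehicle 3, and one of each stood low, the samples numbered 2. The means were 9.21 ± 0.61 after GW9662 and 9.24 ± 0.60 in vehicle (SD, n = 4 each). The log2 fold change was -0.03 with a 95% interval from -0.76 to 0.71. With the block and without pair 4 it was -0.32 (limma, unadjusted p = 0.0409, adjusted p = 0.841). Pair 4 was the only pair in which Has1 was higher after GW9662, by 0.85. Leaving it out is bound to move the value down, and no other pair was left out. The SD over the 8 samples, 0.56, was larger than that of 99.7% of genes.

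Tnfaip6 ranked the samples in a similar order. It is a secreted protein that binds hyaluronan and is induced in inflammation, and its log2 signal was 9.16, 9.11, 9.63 and 10.04 in GW9662 samples 1 to 4, against 9.72, 8.95, 9.95 and 9.44 in vehicle samples 1 to 4. Again GW9662 4 and vehicle 3 were the highest, and both samples numbered 2 were the lowest of their group. The log2 fold change was -0.03 ± 0.24 (SE), with a 95% interval from -0.57 to 0.51. Its SD over the 8 samples, 0.40, was larger than that of 99.0% of genes.

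Across the 8 samples Has1 and Tnfaip6 rose and fell together. Of 36 relations between the 9 genes, theirs was the 1 that passed adjustment (Pearson r = 0.930, exact permutation p = 9.67e-04, adjusted p = 0.0348). Spearman's rho was 0.881, with an exact permutation p of 0.00724 and an adjusted p of 0.261, which missed the threshold. Without GW9662 4 and vehicle 3, the samples farthest from the median of Has1, r over the other 6 was 0.878 (exact permutation p = 0.0389, adjusted p = 0.742). Within the GW9662 samples alone r was 0.992 and within the vehicle samples alone it was 0.866, and over the deviations from both the group and the same-day means it was 0.846. The relation had the same sign inside each group. The last value rests on 4 pair differences per gene and carries no p. These differences shared a sign between Has1 and Tnfaip6 in pairs 1, 3 and 4 but not in pair 2 (-0.03 and 0.16). Same-numbered samples are not fully independent, and leaving out any 1 sample kept r between 0.90 and 0.982. With 7 samples the adjusted p was 0.0357 without vehicle 1 and between 0.0536 and 0.286 in the other 7 cases. The pattern was not confined to hyaluronan genes. Of 8144 other genes brighter than the median gene, 67 (0.823%) had r over 0.9 with Has1 and 46 (0.565%) with Tnfaip6, and 31 were shared. With r = 0.930 between Has1 and Tnfaip6 over the same samples, such lists are bound to share genes. The sharing is not separate evidence.

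The summed signals of 2 marker lists of other cell types were highest in the same sample of each group as Has1, GW9662 4 and vehicle 3. These lists were picked after values had been seen, and no other marker list peaked in both samples. The summed log2 signal of 6 endothelial markers was 29.3, 30.6, 31.0 and 31.3 in GW9662 samples 1 to 4, against 28.8, 30.1, 32.1 and 31.9 in vehicle samples 1 to 4. Of these markers, 4 were dimmer than the median gene, Pecam1, Cdh5, Emcn and Cldn5, and the brighter ones were Kdr and Tek. Kdr and Cldn5 were the highest of their group in both GW9662 4 and vehicle 3. Pecam1 was so in GW9662 4 and tied in vehicle 3, while Tek, Cdh5 and Emcn peaked in other samples. Of 6 adipocyte markers listed only 3 were measured, Adipoq, Lep and Fabp4, all dimmer than the median gene. Their sum was 10.59, 10.67, 11.09 and 11.11 in GW9662 samples 1 to 4, against 11.08, 10.72, 11.32 and 11.06 in vehicle samples 1 to 4. Fabp4 was the highest of its group in GW9662 4 (4.02) and vehicle 3 (4.24). Adipoq was so in GW9662 4 (3.25) but not in vehicle 3 (3.24), since vehicle 1 had 3.29. Lep went the other way and was the lowest of its group in both samples, at 3.84. The part of these lists in the co-variation was not tested.

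The promoters of these co-varying genes are shown because they are the regulatory sequences nearest to the transcripts that moved together. Each line gives the 250 bases before an annotated transcript start, 5′ to 3′ along the gene, from RefSeq on GRCm38.p6, at chr17:17855189-17855438 on the minus strand for Has1 and chr2:52037863-52038112 on the plus strand for Tnfaip6. Capitals mark matches to the motifs searched on both strands.
Has1: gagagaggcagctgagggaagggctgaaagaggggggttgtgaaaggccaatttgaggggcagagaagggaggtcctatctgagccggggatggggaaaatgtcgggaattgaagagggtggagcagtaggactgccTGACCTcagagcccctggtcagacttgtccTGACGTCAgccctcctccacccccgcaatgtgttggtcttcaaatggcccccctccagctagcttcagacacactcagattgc
Tnfaip6: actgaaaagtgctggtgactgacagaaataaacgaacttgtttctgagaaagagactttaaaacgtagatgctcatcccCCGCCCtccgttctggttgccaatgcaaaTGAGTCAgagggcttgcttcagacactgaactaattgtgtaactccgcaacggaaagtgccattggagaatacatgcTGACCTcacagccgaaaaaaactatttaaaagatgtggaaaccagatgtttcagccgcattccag
The Has1 window holds the cyclic AMP response element TGACGTCA, beginning 83 bases before the start, which 1.55% of the 32817 promoter windows in the table hold. The Tnfaip6 window holds a match to TGANTCA, the AP-1 motif, 142 bases before the start, as 6.75% of windows do, and a GC box, GGGCGG read on the other strand, as 32.7% do. Promoters were in the table for 7 of the 9 genes, all but Has2 and Has3. PPARG with its partner RXR binds a repeat of AGGTCA with 1 base between the copies. This repeat occurred in 0 of the 7 windows and in 0.0335% of all windows, while a single copy occurred in 2 of the 7, Has1 and Tnfaip6, and in 14.0% of all. The TATA box TATAAA occurred in 0 of the 7 and in 12.4% of all. GC boxes were found in 4 of the 7, Tnfaip6, Hyal1, Hyal2 and Vcan. A match is a description of letters in the window and not evidence of binding.

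The enzymes that make the sugar precursors of hyaluronan were examined beside the synthases. Uap1 makes UDP-N-acetylglucosamine, 1 of the 2 sugars of the polymer, and Gfpt2 catalyses the entry step of that route. Uap1 measured 8.66, 8.61, 8.96 and 9.14 on the log2 scale in GW9662 samples 1 to 4, against 8.83, 8.39, 9.29 and 8.68 in vehicle samples 1 to 4. Gfpt2 measured 8.62, 8.66, 9.16 and 9.45 in GW9662 samples 1 to 4, against 8.95, 8.49, 9.50 and 9.29 in vehicle samples 1 to 4. For both genes the highest sample of each group was again GW9662 4 and vehicle 3. Of 21 relations between the 3 synthases and 7 precursor genes, a set chosen after values had been seen, 2 passed adjustment, and both were with Has1. Uap1 and Gfpt2 were among the 31 genes with r over 0.9 to both Has1 and Tnfaip6. For Uap1 Pearson r was 0.953 (exact permutation p = 2.23e-04, adjusted p = 0.00469) and Spearman's rho 0.952 (exact permutation p = 0.00114). For Gfpt2 r was 0.918 (exact permutation p = 0.00114, adjusted p = 0.0120) and rho 0.905 (exact permutation p = 0.00456). Without GW9662 4 and vehicle 3, r over the other 6 samples was 0.863 for Uap1 and 0.882 for Gfpt2, and neither passed adjustment there (adjusted p = 0.394 for each). Ugdh, which makes the other precursor, UDP-glucuronic acid, had r = 0.707 with Has1 (adjusted p = 0.220), and r fell to 0.244 without those samples.

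**Figure D2:**
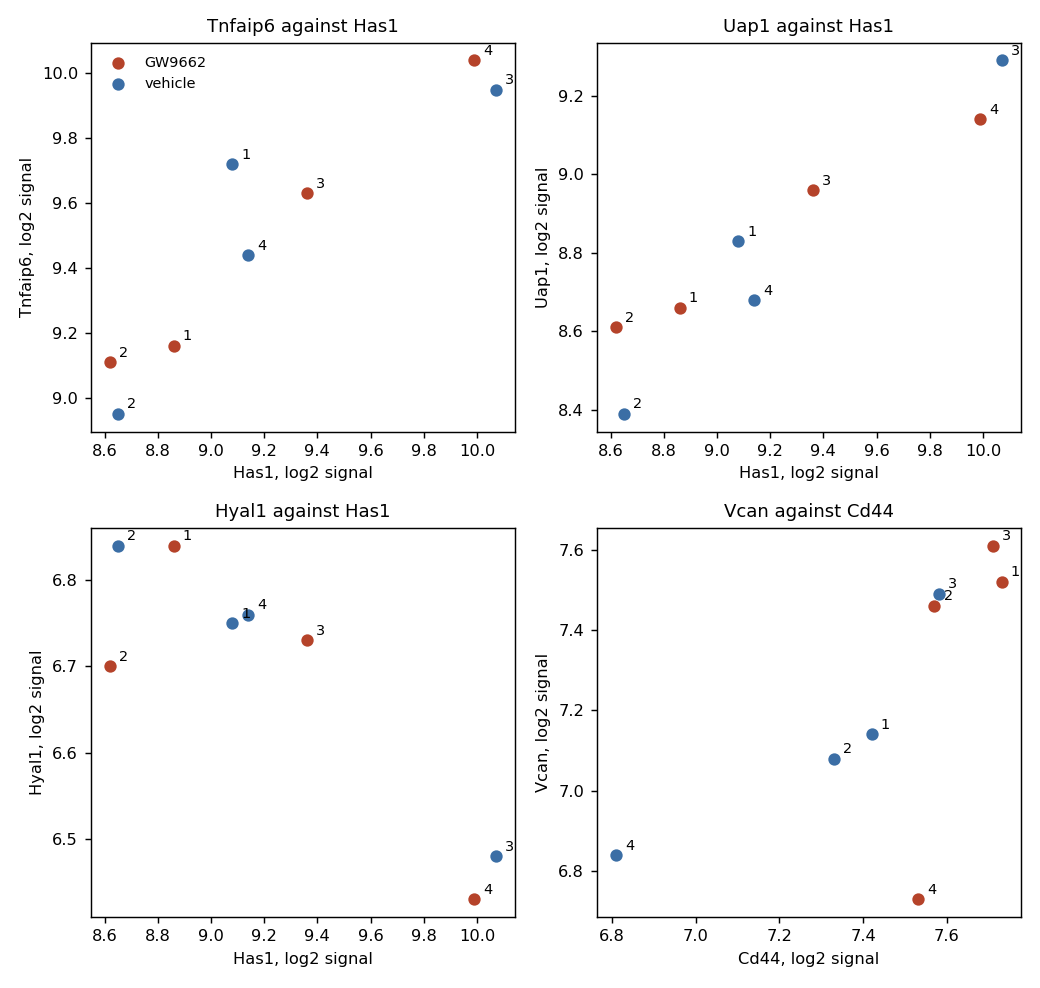
Log2 signal of pairs of genes in the 8 samples, GW9662 in red and vehicle in blue, numbered by replicate. Tnfaip6 and Uap1 climb with Has1 in both colours, Hyal1 is lowest in the samples where Has1 is highest (GW9662 4 and vehicle 3), and Vcan climbs with Cd44 apart from GW9662 4.

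Has2, the synthase that embryos need for heart development, was measured by 2 probe sets. The brighter one gave 7.47, 7.74, 7.52 and 7.72 in GW9662 samples 1 to 4, against 7.72, 7.63, 8.29 and 7.36 in vehicle samples 1 to 4. Vehicle 3 was the highest of the 8 samples and vehicle 4 the lowest, so the vehicle group enclosed the GW9662 group. The log2 fold change was -0.14 ± 0.17 (SE) in this probe set and -0.21 ± 0.14 in the dimmer one, whose highest sample was also vehicle 3. Without vehicle 3 the first value turned to 0.0425. In the gene table Has2 overlaps its antisense gene Has2os. Whether the 2 probe sets lie in the overlap is not known, and the strand of the labelled cDNA is not stated. A part of Has2os in their signal was not tested.

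Has3, the third synthase, lay between 3.38 and 3.52 in all 8 samples, with a log2 fold change of -0.02 ± 0.06 (SE). Of all genes, 10.01% were dimmer, and whether Has3 was above background was not tested.

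The hyaluronidases did not differ beyond the spread between animals. Hyal1, the lysosomal enzyme that cuts hyaluronan into short pieces, measured 6.84, 6.70, 6.73 and 6.43 in GW9662 samples 1 to 4, against 6.75, 6.84, 6.48 and 6.76 in vehicle samples 1 to 4. Its lowest samples, GW9662 4 and vehicle 3, were the highest for Has1 and Tnfaip6. Hyal1 had r = -0.884 with Has1 (exact permutation p = 0.0102, adjusted p = 0.123, rho = -0.587 with an exact permutation p of 0.135) and r = -0.823 with Tnfaip6 (exact permutation p = 0.00908, adjusted p = 0.123, rho = -0.719 with an exact permutation p of 0.0525). Without GW9662 4 and vehicle 3 these values were -0.296 and -0.492, so the relation rests on those samples, whose removal also narrows the range of Has1. The sign was negative within each group, with r of -0.807 in the GW9662 samples and -0.991 in the vehicle samples for Has1, and -0.835 and -0.834 for Tnfaip6. Over deviations from the group and same-day means r was -0.958 with Has1 and -0.899 with Tnfaip6. With any 1 sample left out r ran from -0.971 to -0.828 with Has1 and from -0.890 to -0.738 with Tnfaip6. The log2 fold change of Hyal1 was -0.03 ± 0.10 (SE).

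Hyal2, a hyaluronidase anchored at the cell surface that acts on long chains, measured 6.48, 6.57, 6.38 and 6.45 in GW9662 samples 1 to 4, against 6.66, 6.35, 6.50 and 6.72 in vehicle samples 1 to 4. The lowest and the highest of the 8 were both vehicle samples. Its log2 fold change was -0.09 ± 0.09 (SE), lower in 3 of 4 pairs, and ran from -0.16 without vehicle 2 to -0.033 without vehicle 4. Hyal1 and Hyal2 are neighbours on chromosome 9, yet r between them was 0.06 over the 8 samples.

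**Figure D3:**
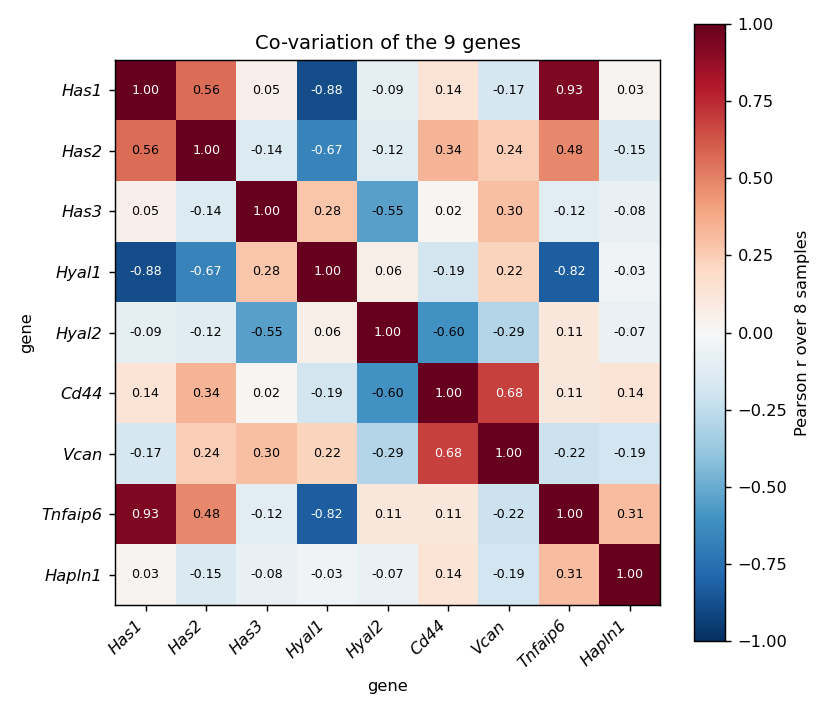
Pearson r between the log2 signals of the 9 genes over the 8 samples, from -1 in blue to 1 in red. Has1 and Tnfaip6 stand at 0.93, Hyal1 is at -0.88 and -0.82 with them, and Cd44 and Vcan are at 0.68.

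Cd44, the main hyaluronan receptor of fibroblasts and of many other cells, had the largest difference of the 9 genes. Its brightest probe set measured 7.73, 7.57, 7.71 and 7.53 on the log2 scale in GW9662 samples 1 to 4, against 7.42, 7.33, 7.58 and 6.81 in vehicle samples 1 to 4. Vehicle 4 was far below the rest, and vehicle 3 lay inside the GW9662 range, so the groups overlapped. The means were 7.64 ± 0.10 after GW9662 and 7.29 ± 0.33 in vehicle (SD, n = 4 each), a log2 fold change of 0.35 ± 0.14 (SE) or 1.27-fold, with a 95% interval from 0.03 to 0.67. The unadjusted limma p was 0.0340 and the adjusted p 0.997. An exact permutation of the sample labels gave p = 0.0857, where the smallest possible is 0.0286.

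Taken by pairs, Cd44 was higher after GW9662 in each of the 4 same-day pairs, by 0.31, 0.24, 0.13 and 0.72 for pairs 1 to 4. Of the 9 genes it was the 1 higher in 4 of 4 pairs, as were 5.46% of all genes. The fit with the block gave an unadjusted p of 0.00852 and an adjusted p of 0.966. An exact permutation by sign flips over the pairs gave p = 0.125, the smallest it can give with 4 pairs. The summed log2 signal of 7 sorted fibroblast markers was also lowest in vehicle 4, at 70.4, with the other 7 samples between 71.4 and 72.6, and its part in the result was not tested. Without vehicle 4 the log2 fold change of Cd44 was 0.19, against 0.32 to 0.45 with any other single sample left out.

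The other 3 probe sets of Cd44 also had higher means after GW9662, by 0.43, 0.12 and 0.10 on the log2 scale from the brightest to the dimmest. The first of them measured 7.32, 7.16, 7.49 and 7.03 in GW9662 samples 1 to 4, against 7.01, 6.64, 7.29 and 6.35 in vehicle samples 1 to 4, and was higher in 4 of 4 pairs. The third gave 4.78, 4.96, 5.22 and 4.97 in GW9662 samples 1 to 4, against 4.79, 4.90, 5.08 and 4.78 in vehicle samples 1 to 4, and its groups nearly coincided. The probe sets share 1 gene and the same RNA and are not separate evidence. Which exons they cover, and so which of the many spliced forms of Cd44, is not stated. The cytoskeletal proteins that anchor CD44, Ezr, Rdx and Msn, had log2 fold changes of 0.06, 0.12 and 0.0075, and 0 of the 3 passed limma's test.

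Versican, the proteoglycan that hyaluronan holds in the matrix, gave the next largest difference. Its brightest probe set measured 7.52, 7.46, 7.61 and 6.73 in GW9662 samples 1 to 4, against 7.14, 7.08, 7.49 and 6.84 in vehicle samples 1 to 4. Of the GW9662 samples, 3 were among the highest 4, while GW9662 4 was the lowest of all 8 and its partner vehicle 4 the next lowest. The log2 fold change was 0.19 ± 0.19 (SE), with a 95% interval from -0.24 to 0.62. With the block the SE was 0.09 and the unadjusted p 0.0777 (adjusted p = 0.966). The difference was 0.09 without vehicle 4, 0.10 without GW9662 3 and 0.39 without GW9662 4. It was 0.29 with the block and without pair 4 (limma, unadjusted p = 0.00979, adjusted p = 0.841). Pair 4 was the only pair in which this probe set was lower after GW9662, by -0.11. Leaving it out is bound to raise the difference, and no other pair was left out.

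Vcan had 5 probe sets, of which 3 were bright and followed one another. The second measured 7.23, 7.38, 7.33 and 6.77 in GW9662 samples 1 to 4, against 6.87, 7.10, 7.08 and 6.55 in vehicle samples 1 to 4. The third measured 6.53, 6.44, 6.42 and 5.86 in GW9662 samples 1 to 4, against 6.05, 6.01, 6.27 and 5.72 in vehicle samples 1 to 4. Both were higher in 4 of 4 pairs, with log2 fold changes of 0.28 and 0.30. In limma's fit over 45037 probe sets with the block, their unadjusted p was 0.00214 and 0.00680 and their adjusted p 0.975. The 2 dim probe sets, at 3.13 to 3.44, differed by -0.02 and -0.01.

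Over all 18 probe sets of the 9 genes, 2 had an unadjusted p under 0.05 without the block, both of Cd44 and both higher after GW9662, against 3.55% of all probe sets in either direction and 1.81% higher. With the block there were 4, of Cd44 and Vcan, all higher after GW9662, against 4.85% of all probe sets in either direction and 2.57% higher. In both fits 0 passed adjustment over all probe sets, as did 0% of them. The same 4 were higher in 4 of 4 pairs, as were 5.40% of all probe sets.

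**Figure D4:**
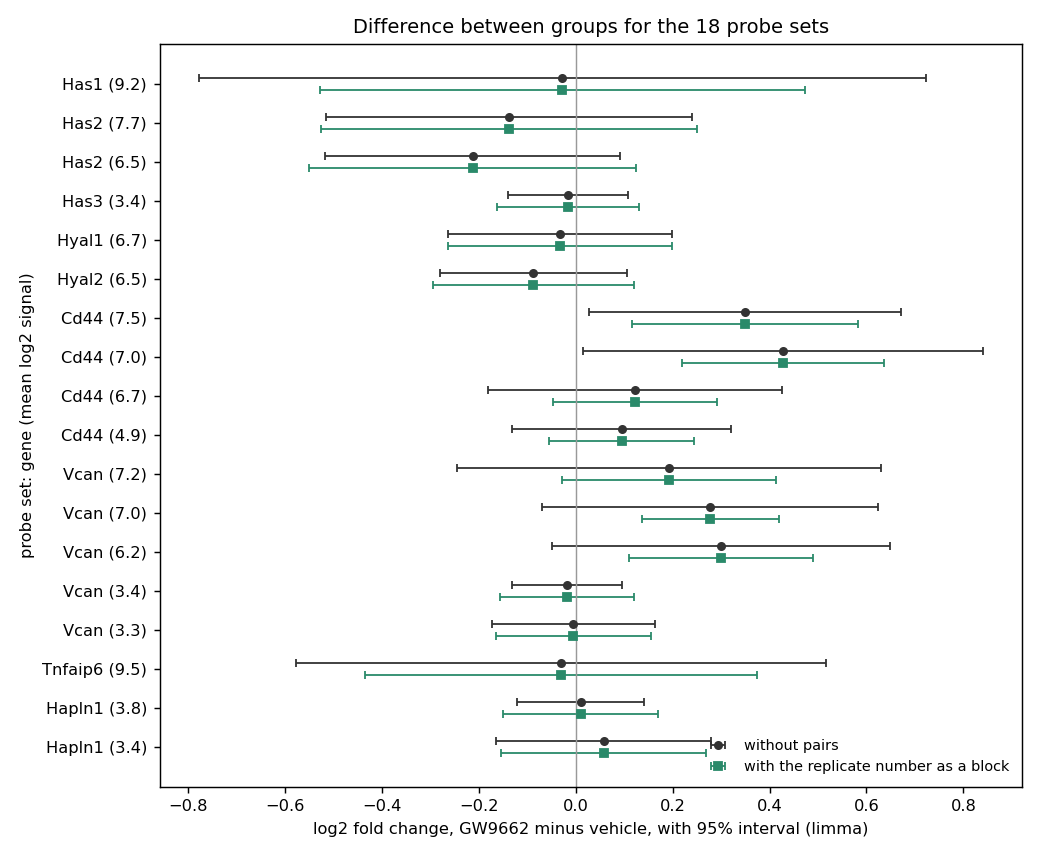
Log2 fold change of the 18 probe sets, GW9662 minus vehicle, with 95% intervals from limma without the pairs (black) and with the replicate number as a block (green), labelled by gene and mean log2 signal. The intervals of 2 Cd44 probe sets lie above 0 in both fits, and those of 2 Vcan probe sets do so with the block alone. Over all probe sets the adjusted p of each was 0.997 without the block and 0.975 with it.

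Cd44 and Vcan had r = 0.684 over the 8 samples (exact permutation p = 0.0382, adjusted p = 0.344, rho = 0.833 with an exact permutation p of 0.0154). Without vehicle 2 and vehicle 4, the samples farthest from the median of Cd44, r was 0.646 (exact permutation p = 0.174), and without GW9662 4 it was 0.940. Over deviations from the group and same-day means r was -0.681, the opposite sign.

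Hapln1, the link protein, lies beside Vcan on chromosome 13. It measured 3.74 to 3.86 in the GW9662 samples and 3.74 to 3.89 in the vehicle samples, with a log2 fold change of 0.01 ± 0.06 (SE), and 19.6% of genes had a dimmer probe set. Its second probe set lay between 3.13 and 3.62.

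By their pattern over the 8 samples, the genes most like each bright member were sought among 8144 genes brighter than the median gene. The values describe the best of many and carry no p. Has1 was closest to Skil, which encodes a repressor of SMAD signalling (r = 0.985), Txnrd1, a thioredoxin reductase (0.980), and Atf3, a stress-induced transcription factor (0.977). Tnfaip6 was closest to Gsk3a, a glycogen synthase kinase (0.986), Rbbp6 (0.977) and Plagl1 (0.965). Cd44 was closest to Rdh10, a retinol dehydrogenase (0.975), Slc39a6, a zinc transporter (0.970), and Igsf3 (0.969). Vcan was closest to Col6a3, a chain of collagen VI (0.978), Phlda3 (0.972) and Cnn2, a calponin (0.961). Has2 was closest to Eloc (0.975), Mrpl23 (0.974) and Lsm12 (0.962), Hyal1 to Zfp518b (0.962), Ptges3l (0.957) and Wdr24 (0.949), and Hyal2 to Ppif (0.942), Ing1 (0.923) and Npepl1 (0.915).

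The other genes of hyaluronan metabolism showed no change past the test. Of 45 genes in 6 lists, 42 were measured, of which 17 were higher, 21 lower and 4 equal in mean after GW9662. Among all genes 47.0% were higher and 51.8% lower. Of the 42, 0 passed limma's test over all genes, as did 0% of all genes. Their median log2 fold change was -0.0037. At an unadjusted p under 0.05 there were 0 without the block and 1 with it, Gfpt1, against 3.38% and 4.83% of all genes. Among the 7 precursor genes, 5 were higher and 2 lower (median 0.05). Gfpt1, the other enzyme of the entry step, measured 7.25 ± 0.12 after GW9662 and 7.08 ± 0.14 in vehicle (SD, n = 4 each). Its log2 fold change was 0.18 ± 0.09 (SE), higher in 4 of 4 pairs, as were 5.46% of all genes. In limma its unadjusted p was 0.0729 (adjusted p = 0.997), and 0.0272 with the block (adjusted p = 0.966). Pgm3, an enzyme of the middle of that route, had -0.13 ± 0.08.

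Of 7 other degrading enzymes measured, 2 were higher and 5 lower (median -0.06). Hexa, a lysosomal enzyme that trims sugar ends, had a log2 fold change of 0.13 ± 0.11 (SE), and Spam1, the sperm hyaluronidase, -0.08 ± 0.06 at a signal near 3.1. Of 7 other receptors, 2 were higher and 5 lower (median -0.06). Hmmr, a hyaluronan-binding protein of dividing cells, had -0.11 ± 0.07 and Layn, layilin, 0.06 ± 0.06. Of 12 other matrix binders measured, 3 were higher, 8 lower and 1 equal (median -0.01), with Itih3, a heavy chain of the serum inhibitor, at -0.09 ± 0.06 and the cartilage proteoglycan Acan at -0.10 ± 0.08. Of 6 proteases that cleave versican, 2 were higher, 1 lower and 3 equal (median 0), with Adamts15 at 0.07 ± 0.10 and Adamts5 at 0.04 ± 0.07.

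**Figure D5:**
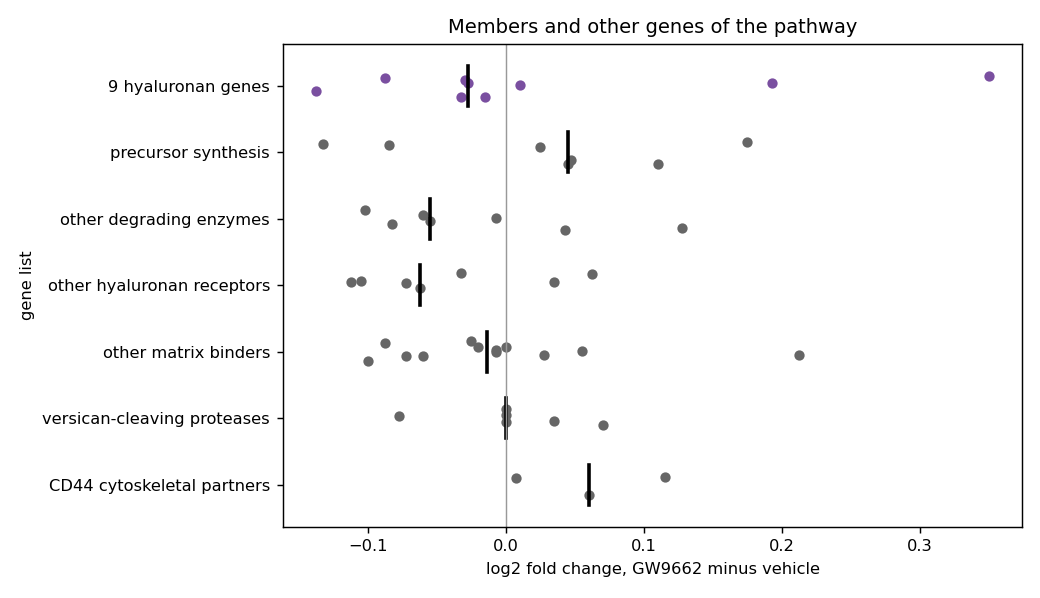
Log2 fold change, GW9662 minus vehicle, of each measured gene of the 9 hyaluronan genes and of the 6 lists of other pathway genes, with the list median as a black bar. Medians lie between -0.06 and 0.06, and Cd44 at 0.35 is the point farthest from 0.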

How the data were processed

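Signals of 8 arrays, 1 per animal, were analysed. The deposited values are log2 signal intensities per probe set, made by the authors with RMA in the affy package per the submitters' processing notes, which give no versions. The log base was inferred from the range of values. Each value column belonged to a sample. Of 45141 probe sets, 28898 had 1 gene in the platform annotation, 551 had several (left out) and 15692 had none listed. A gene was represented by its probe set of highest mean.

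GW9662 was compared with vehicle in limma 3.58.1 (R 4.3.3, lmFit and eBayes, no filter, two-sided, Benjamini-Hochberg over 17097 genes), and again over the 45037 probe sets that are not controls. The number of arrays limits the precision. Single values were tested by exact permutation over 70 assignments and by sign flips of 4 pairs, correlations by exact permutation of pairings, all two-sided. Same-numbered samples deviated together from their group means (r = 0.203, 0.163, 0.114 and 0.165 for numbers 1 to 4) and the design states shared days, so the numbers were read as pairs. No 2 samples shared more than 3.05% of values.

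Named genes were the 9 members, the 2 genes of smallest unadjusted p in each pathway list, the 3 nearest genes of each member brighter than the median gene, Pparg and the sort markers. Uap1, Gfpt2, Ugdh, Msn, Cd68, the endothelial and adipocyte markers and Has2os were added after values were seen. The members and lists were chosen with earlier results of these data known. The procedure was tested on simulated data with independent noise. The changes planted there were larger than those of the 9 members, so the simulation does not cover differences of their size. Alternatives were the replicate block, other probe set, variance, filter, scaling and weight choices, and each sample left out.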

Additional observations from a re-analysis of the deposited data

Results flagged for a closer look

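Each of the 18 probe sets was examined in both groups for a sample far from the other 3, 36 sets of values in all, by the gap to the nearest sample relative to the range of the group. Chance flags about 1 in 20 such groups, and 4 were found. In the GW9662 group, sample 4 was low for Vcan at 6.73 in the brightest probe set and at 5.86 in the third, with gaps of 0.83 and 0.836 of the group's range. The second probe set was also lowest in that sample, at 6.77. Vehicle 4, read as its same-day partner, was the lowest vehicle sample in all 3. GW9662 4 was also the highest GW9662 sample for Has1 and Tnfaip6, and its summed log2 signal of 7 sorted fibroblast markers, 71.4, was the lowest of its group, as was that of vehicle 4, 70.4. Their part in the low Vcan value was not tested. A dim Vcan probe set was high in GW9662 4, at 3.44, over a range of only 0.08. A dim Hapln1 probe set was high in GW9662 3, at 3.62.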

How the results depend on the processing

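No member passed the adjusted threshold under any of the 16 alternative fits (lowest adjusted p = 0.841), and the count was 0 at a threshold of 0.10 and over all probe sets, and 1 at an unadjusted p under 0.05. The signs of Cd44, Vcan and Hyal2 held in all 16. The unadjusted limma p of Cd44 did not stay under 0.05 throughout. It was 0.0727 with the mean of all probe sets, 0.0793 without GW9662 1, 0.0771 without GW9662 3 and 0.0504 without vehicle 2. In the other alternative fits it was under 0.05. With the replicate block the log2 fold changes are unchanged by construction, 0.35 for Cd44 with an SE of 0.10, and no call at the adjusted threshold changed. With the replicate block and without pair 4, Hyal1 turned to 0.067 and Hapln1 to -0.013, Has1 moved to -0.32, Has2 to -0.30, Tnfaip6 to -0.24, Hyal2 to -0.027, Cd44 to 0.23 and Vcan to 0.29, and with array weights Hapln1 turned to -0.0045. With 1 sample left out, the log2 fold change ran from -0.29 to 0.25 for Has1, from -0.27 to 0.0425 for Has2, from -0.043 to 0.0033 for Has3, from -0.11 to 0.049 for Hyal1, from -0.22 to 0.12 for Tnfaip6 and from -0.0092 to 0.041 for Hapln1, from -0.16 to -0.033 for Hyal2, from 0.19 to 0.45 for Cd44, from 0.09 to 0.39 for Vcan, and the number of members with a higher mean from 2 to 6. The signs of Has1 and Tnfaip6 turned without GW9662 1, GW9662 2 or vehicle 3, and that of Tnfaip6 also without vehicle 1. The count of member correlations past adjustment, 1 over all 8 samples, was 0 by Spearman's rho, 0 over group deviations, which allow fewer permutations, 0 without the 2 farthest samples, and 0 to 1 with 1 sample left out. The correlation of Cd44 and Vcan was -0.681 with the replicate block and 0.849 with the mean of all probe sets. The count of synthase and precursor correlations, 2 over all 8 samples, was 0 over group deviations and without the 2 farthest samples, 1 with the mean of all probe sets, where the one with Uap1 was 0.904, and 1 to 3 with 1 sample left out. The alternatives for the precursor genes were chosen after seeing the data. Pathway genes had a count of 0 under every alternative run. Signal over background is not known, which limits Has3, Hapln1 and the dim Vcan probe sets most.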
